A study of Mus musculus with 77 samples.

Results

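Endothelial cells line the blood and lymph vessels of the lung, and 42 genes that mark these cells or belong to the vascular endothelial growth factor (VEGF) signalling axis were followed here through newborn mouse lungs kept in high oxygen or in room air. The genes were taken by symbol from the expression tables, where all 42 were found among 24940 listed transcripts with 1 transcript per symbol. They comprise 6 VEGF genes (Vegfa, Vegfc, Kdr, Flt1, Flt4 and Nrp1), 3 genes of aerocyte capillaries (Car4, Ednrb and Apln), 3 genes used for the general capillary type (Aplnr, Gpihbp1 and Plvap), 3 lymphatic genes (Lyve1, Prox1 and Mmrn1) and 27 general endothelial genes. The question was what Trem2, which encodes a receptor of macrophages, and p53 have to do with injury of the newborn lung by oxygen. Its hyperoxia groups were exposed to 75% oxygen from the first day of life until postnatal day 14, and its room-air groups were pups of the same age. Lung RNA came from 4 sets of mice: C57BL/6J (B6) with 3 hyperoxia and 4 room-air libraries, Trem2 knockout (KO) with 4 and 4, DBA/2J (DBA) with 4 and 4, and a second B6 set with 3 and 2. Lungs of all groups were flushed of blood with buffer and frozen, and RNA was taken from whole lung without sorting cells. No transgene or Cre driver is named, and the labels do not say whether a library is 1 animal or a pool. P-values therefore measure the spread between libraries.

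Capillaries of the alveoli hold a pair of endothelial cell types. Aerocytes are large thin cells specialised for gas exchange, and general capillary cells repair and maintain the bed. VEGF-A, made mainly by the alveolar epithelium, acts on lung capillaries through VEGFR2, the product of Kdr. Newborn rodents kept in high oxygen are known for a sparse capillary bed with few and large alveoli. VEGF-C acts through VEGFR3, the product of Flt4, and drives the growth of lymphatic vessels.

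Promoters are shown for 4 genes whose values the results turn on: Kdr, whose oxygen response had opposite signs in B6 and DBA lungs, Tek, which fell in every set, Calcrl, which had the largest fall of the members in B6 lungs, and Apln, which was called in opposite directions. Each sequence runs 5′ to 3′ along the strand of the gene from 250 bases before to 50 bases after the start, from RefSeq (assembly GRCm38.p6), and capitals mark the letters of the ETS core on either strand. Kdr, Calcrl and Apln lie on the minus strand and Tek lies on the plus strand.
Kdr, chr5:75978406-75978705: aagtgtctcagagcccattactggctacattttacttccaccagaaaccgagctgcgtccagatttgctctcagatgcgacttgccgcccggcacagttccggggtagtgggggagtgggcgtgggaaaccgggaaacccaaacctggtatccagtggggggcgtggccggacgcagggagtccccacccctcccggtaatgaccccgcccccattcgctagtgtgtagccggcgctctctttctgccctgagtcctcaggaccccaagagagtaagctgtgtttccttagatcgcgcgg
Tek, chr4:94739039-94739338: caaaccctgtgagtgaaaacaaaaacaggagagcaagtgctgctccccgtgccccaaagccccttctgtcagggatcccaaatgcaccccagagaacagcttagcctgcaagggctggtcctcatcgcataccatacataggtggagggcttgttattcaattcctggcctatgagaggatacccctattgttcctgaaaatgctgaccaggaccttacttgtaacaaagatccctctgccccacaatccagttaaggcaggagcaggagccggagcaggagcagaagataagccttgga
Calcrl, chr2:84425217-84425516: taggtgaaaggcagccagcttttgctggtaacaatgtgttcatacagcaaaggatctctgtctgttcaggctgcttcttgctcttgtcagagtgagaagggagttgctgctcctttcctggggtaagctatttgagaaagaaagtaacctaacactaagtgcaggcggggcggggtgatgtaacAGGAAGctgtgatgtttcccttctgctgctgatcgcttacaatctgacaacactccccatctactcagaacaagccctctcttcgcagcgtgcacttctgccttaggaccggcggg
Apln, chrX:48034804-48035103: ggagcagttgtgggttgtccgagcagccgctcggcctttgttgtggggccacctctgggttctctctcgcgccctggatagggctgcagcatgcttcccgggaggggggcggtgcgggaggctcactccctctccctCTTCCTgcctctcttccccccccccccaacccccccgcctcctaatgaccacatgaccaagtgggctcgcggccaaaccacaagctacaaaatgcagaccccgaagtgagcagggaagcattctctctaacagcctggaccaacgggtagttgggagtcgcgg
A promoter window was given for 23 of the 42 members. AGGAAG, called the ETS core here, is a form of the letters recognised by ERG and other ETS factors of endothelial cells. It was found on either strand in 12 of these 23 windows (52.2%) and in 35.4% of all 32851 promoter windows of the same length. These exact letters were found once each in the windows of Calcrl and Apln and were not in those of Kdr and Tek. Other forms of the ETS site were not searched. The core ACGTG of hypoxia response elements, searched on both strands and overlapping no ETS core, was found in 2 of the 23 windows (8.7%), those of Car4 and Clec14a, and in 19.6% of all windows. These are matches of letters and no measure of binding.

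Expression is given in TPM, a unit scaled for library size and for transcript length, so that levels can be compared between genes. Estimated reads on listed transcripts were 18500000 to 41100000 per library in the B6 and KO table, 12500000 to 41100000 in the B6 and DBA table and 7080000 to 8040000 in the second B6 set. Trem2 itself was low throughout, at 1.96 to 2.67 TPM in KO hyperoxia libraries against 5.97 to 9.85 TPM in B6 hyperoxia libraries, and at 1.05 to 2.75 TPM in KO room-air libraries against 2.14 to 3.73 TPM in B6 room-air libraries. The sources used here do not give the part of the gene that the knockout lacks, so reads counted on it in KO libraries do not check the labels. The date codes in the library names differ between groups: all B6 hyperoxia libraries share a code with 2 of the 4 B6 room-air libraries, KO hyperoxia libraries share theirs with 2 KO room-air libraries, and both DBA groups have 2 libraries in each of a further pair of codes. KO and B6 hyperoxia libraries share no code, nor do DBA and B6 libraries, so genotype or strain and date code cannot be told apart in those comparisons. Of the first B6 set, 1 hyperoxia library and 2 room-air libraries are marked female and all others of the lung sets are marked male. Those 2 room-air libraries are also the ones whose date code the B6 hyperoxia libraries lack. Sex mark and date code therefore cannot be told apart among B6 room-air libraries, and checks by either are not independent. Red blood cell genes summed to 802 to 1930 TPM in B6 hyperoxia libraries against 378 to 6820 TPM in room air, to 2880 to 3710 TPM against 5730 to 6650 TPM in KO, to 3170 to 11000 TPM against 7880 to 28400 TPM in DBA, and to 48300 to 64600 TPM against 31000 to 80000 TPM in the second B6 set. Genes of alveolar fibroblasts summed lower in hyperoxia than in room air in B6 lungs (1200 to 1320 TPM against 1730 to 2170 TPM), in KO lungs (1260 to 1320 TPM against 2060 to 2510 TPM) and in the second B6 set (1440 to 1810 TPM against 2900 to 3060 TPM), and overlapped in DBA lungs (1320 to 2000 TPM against 1790 to 2010 TPM). The part of these cells in the results was not tested. Because whole lung was sequenced, fewer endothelial cells and less RNA per endothelial cell cannot be told apart for any gene below.

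In room-air B6 lungs the members spanned a wide range of levels. Cldn5, the tight junction claudin of endothelium, averaged 492 ± 37.2 TPM (SD, n = 4), Calcrl 473 ± 69.4 TPM and Cdh5 465 ± 23.2 TPM, and the differences among these highest genes were within their spread. At the low end were Prox1, at 1.22 ± 0.27 TPM, Ramp3, at 5.02 ± 1.55 TPM, and Mmrn1, at 8.37 ± 0.73 TPM (SD, n = 4 each). Cdh5, Pecam1, Tie1 and Cldn5, defining genes of endothelium, were present in every lung library, the lowest value among them being 32.9 TPM for Tie1 in a hyperoxia library of the second B6 set.

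More of these genes were lower than higher in hyperoxia in every set. In B6 lungs 6 members rose and 16 fell out of 42, in KO lungs 4 rose and 18 fell, in DBA lungs 5 rose and 13 fell, and in the second B6 set 3 rose and 10 fell out of 41 tested, Prox1 having been too low there to be tested. The second set holds few libraries: 1 member was called without room-air library 1, 0 without room-air library 2, 7 without hyperoxia library 1 and 8 without hyperoxia library 3. A gene was called at an adjusted p below 0.05 in limma, on log2(TPM + 1), with Benjamini-Hochberg adjustment over all genes tested. Over all genes tested, 16.6% were higher and 26% lower in B6 hyperoxia lungs, 10.6% and 9.11% in KO, 18.6% and 12.4% in DBA, and 3.13% and 1.81% in the second B6 set. The median log2 fold change of the members was -0.16 in B6, -0.25 in KO, -0.12 in DBA and -0.46 in the second B6 set, beside medians over all genes of -0.07, 0.01, 0.05 and 0.01. With the median of all genes set equal in every library, the B6 calls over all genes turned from 2595 higher and 4067 lower to 3517 higher and 3147 lower, and 7 members rose and 12 fell. The DBA rises depended on scaling and on single libraries: with quantile normalization 1 member rose and 17 fell, with equal medians 2 rose and 15 fell, and none rose without the room-air library at 42.9 TPM of Kdr (12 fell) or without the hyperoxia library at 122 TPM of Kdr (15 fell).

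Of the 27 general endothelial genes among the 42, 2 rose and 11 fell in B6 lungs, 1 rose and 15 fell in KO lungs, 1 rose and 9 fell in DBA lungs, and 1 rose and 8 fell in the second B6 set. The 4 oxygen comparisons share no library. Across them only Lyve1 rose in all 4, Tek and Sox17 fell in all 4, and Flt1, Flt4, Emcn, Cd93 and Vwf were called in none. Kdr, Apln and Gpihbp1 were called up in some sets and down in others. Between the B6 sets, 8 members were called in the same direction in both and 2, Apln and Gpihbp1, in opposite directions. These counts across sets were made for the members alone. With no share over all genes beside them, they do not set the members apart from other genes.

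**Figure D1:**
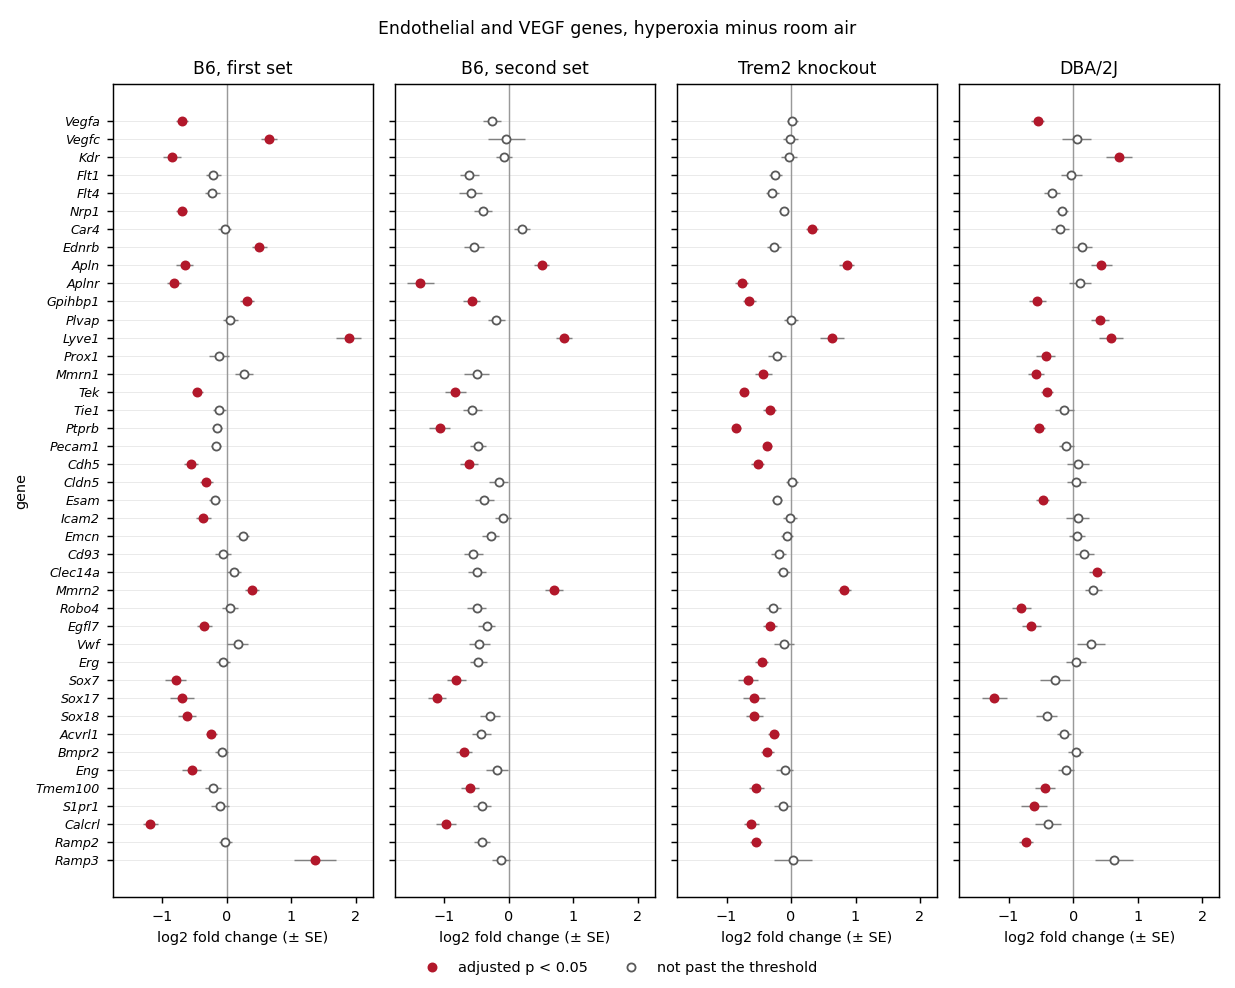
Log2 fold change of hyperoxia over room air for the 42 genes in 4 sets of lungs, with bars of 1 SE; filled red points passed an adjusted p of 0.05 and open points did not, and Prox1 was not tested in the second B6 set. Tek and Sox17 lie left of 0 and Lyve1 right of 0 in all 4 panels, while Kdr lies at -0.85 in the first B6 set and at 0.71 in DBA lungs.

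Vegfa, which encodes the main growth factor of lung capillaries (chr17:46016994-46032377, minus strand, mm10), fell in B6 and DBA hyperoxia lungs and did not pass the test in KO lungs. Its levels were 252, 245 and 242 TPM in B6 hyperoxia libraries, against 419, 416, 375 and 380 TPM in B6 room-air libraries. In KO lungs they were 405, 318, 350 and 325 TPM in hyperoxia, against 332, 365, 303 and 377 TPM in room air. In DBA lungs they were 301, 429, 352 and 359 TPM in hyperoxia, against 552, 495, 494 and 561 TPM in room air. The B6 groups and the DBA groups did not overlap, while the KO groups did. The log2 fold change was -0.69 ± 0.09 (SE) in B6 (limma adjusted p = 3.62e-05), 0.02 ± 0.09 in KO (adjusted p = 0.901) and -0.55 ± 0.10 in DBA (adjusted p = 0.000891). The KO response differed from that of B6 by 0.71 ± 0.13 (limma interaction, adjusted p = 0.00104), and the DBA response differed from it by 0.14 ± 0.15 (adjusted p = 0.517). In the second B6 set Vegfa was at 204, 255 and 256 TPM in hyperoxia libraries, against 273 and 294 TPM in room-air libraries. Those groups did not overlap, and the log2 fold change of -0.26 ± 0.14 did not pass (limma adjusted p = 0.329). Among B6 libraries of the shared date code the log2 fold change was -0.76 (limma adjusted p = 0.00434) and among KO libraries of the shared code it was 0.04 (adjusted p = 0.859). Of 8 genes of alveolar type 1 cells, which make much of the VEGF-A of the lung, 2 rose and 1 fell in B6 lungs, 3 rose in KO and 4 rose in DBA lungs, and none was called in the second B6 set. Of 7 genes of alveolar type 2 cells, 3 fell in B6 and in KO lungs, 6 rose in DBA lungs and none was called in the second B6 set. Their part in the Vegfa values was not tested.

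Vegfc, the lymphatic growth factor, rose in B6 hyperoxia lungs, where it measured 25.8, 31.1 and 20.1 TPM in hyperoxia, against 16, 15.7, 16.7 and 14.1 TPM in room air. The B6 groups did not overlap, and the log2 fold change was 0.66 ± 0.12 (SE, limma adjusted p = 0.000556). In KO lungs its log2 fold change was -0.01 ± 0.12, in DBA lungs 0.05 ± 0.22 and in the second B6 set -0.04 ± 0.28, where it rested on 91 to 181 reads a library. The KO response differed from that of B6 by -0.67 ± 0.17 (limma interaction, adjusted p = 0.00891), a call that was lost when male libraries alone were used (-0.64, adjusted p = 0.0527).

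Kdr, the main signalling receptor for VEGF-A on blood vessels (chr5:75933270-75978428, minus strand, mm10), fell in B6 hyperoxia lungs and rose in DBA hyperoxia lungs. It measured 98.5, 68.6 and 84.9 TPM in B6 hyperoxia libraries, against 184, 146, 132 and 144 TPM in B6 room-air libraries. In DBA lungs it measured 95.6, 122, 94.5 and 82.7 TPM in hyperoxia, against 47.5, 96.7, 42.9 and 62.4 TPM in room air. In KO lungs it measured 132, 105, 130 and 125 TPM in hyperoxia, against 123, 148, 116 and 116 TPM in room air. The B6 groups were separate, the KO groups overlapped, and the DBA groups were separate but for 1 room-air library at 96.7 TPM. Its log2 fold change was -0.85 ± 0.13 (SE) in B6 (limma adjusted p = 0.000129), -0.03 ± 0.12 in KO (adjusted p = 0.904), 0.71 ± 0.21 in DBA (adjusted p = 0.0164) and -0.08 ± 0.12 in the second B6 set (adjusted p = 0.777). The response differed from that of B6 by 0.82 ± 0.18 in KO (limma interaction, adjusted p = 0.00407) and by 1.56 ± 0.30 in DBA (adjusted p = 0.00187). Within the pair of date codes of the DBA lungs the log2 fold change was 0.66 (limma adjusted p = 0.287) and 0.76 (adjusted p = 0.0491). Without the DBA room-air library at 47.5 TPM it was 0.61 (limma adjusted p = 0.0542), without that at 42.9 TPM 0.56 (adjusted p = 0.0589) and without the hyperoxia library at 122 TPM 0.61 (adjusted p = 0.0509). With no filter on low values 0 members were called higher in DBA lungs, so the Kdr call was lost there too. DBA lungs in room air had less Kdr than B6 lungs in room air, by a log2 fold change of -1.33 ± 0.21 (limma adjusted p = 6.78e-05), and in hyperoxia the strains differed by 0.23 ± 0.22 (adjusted p = 0.415).

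Nrp1, a co-receptor that presents VEGF to Kdr and is also made outside the endothelium, fell in B6 hyperoxia lungs. It measured 148, 114 and 126 TPM there, against 207, 198, 216 and 218 TPM in room air, and the groups were far apart. In the second B6 set it measured 128, 165 and 140 TPM in hyperoxia, against 204 and 178 TPM in room air, groups that did not overlap. The change on the log2 scale was -0.70 ± 0.08 (SE) in B6 (limma adjusted p = 9.19e-06), -0.12 ± 0.08 in KO (adjusted p = 0.3), -0.17 ± 0.09 in DBA (adjusted p = 0.152) and -0.40 ± 0.14 in the second B6 set (adjusted p = 0.139). Both the KO response (0.58 ± 0.11, limma interaction adjusted p = 0.00159) and the DBA response (0.53 ± 0.13, adjusted p = 0.00824) differed from that of B6. With equal medians in every library the DBA difference was 0.39 and not called (limma adjusted p = 0.0582).

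Flt1, a receptor that binds VEGF-A with high affinity and also exists as a soluble trap, and Flt4, the receptor for VEGF-C, did not pass the test in any oxygen comparison. Flt1 measured 41.6, 48.5 and 32.4 TPM in B6 hyperoxia libraries, against 52.3, 47.6, 43.2 and 43.8 TPM in B6 room-air libraries. Flt4 measured 17.7, 17.4 and 14.1 TPM in B6 hyperoxia libraries, against 22.8, 20.7, 17.7 and 16.5 TPM in B6 room-air libraries. Both pairs of groups overlapped, and all 8 log2 fold changes of these genes were below 0, from -0.61 for Flt1 in the second B6 set (limma adjusted p = 0.051) to -0.03 for Flt1 in DBA lungs (adjusted p = 0.916).

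**Figure D2:**
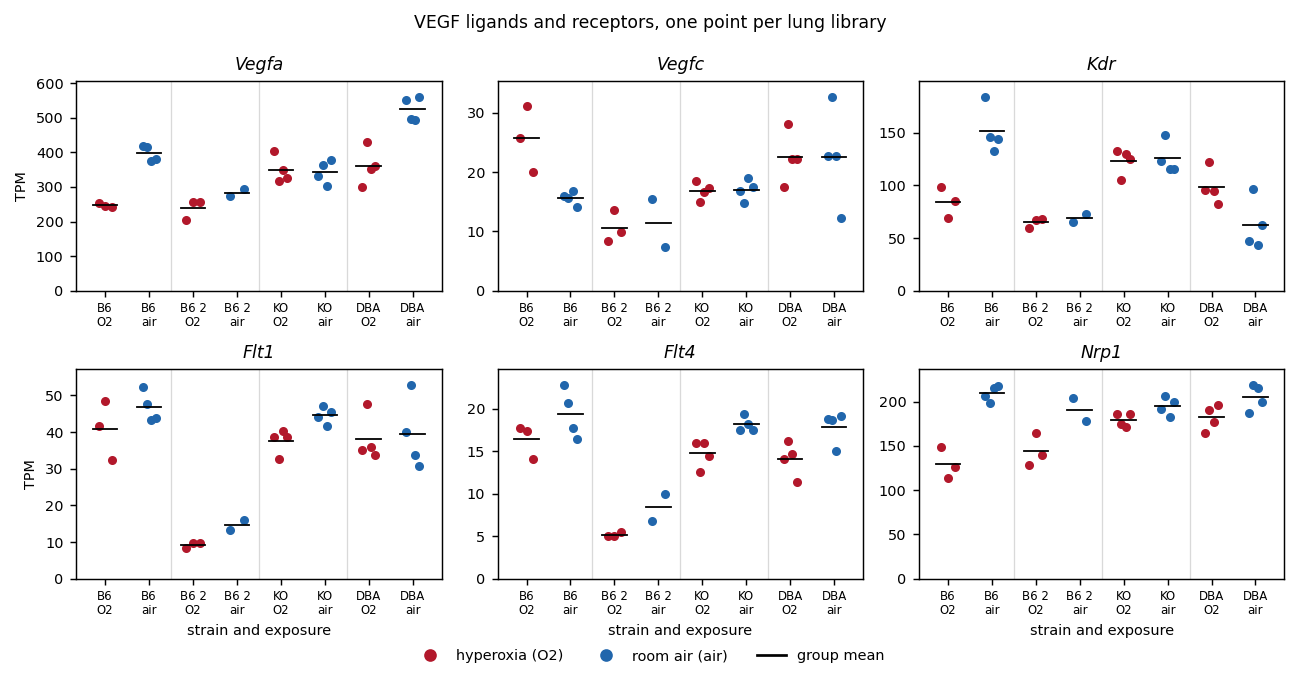
TPM of the 6 VEGF genes in every lung library, by set and exposure (B6, first B6 set; B6 2, second B6 set; KO, Trem2 knockout; DBA, DBA/2J; O2, hyperoxia; air, room air), with black lines at group means. Vegfa is at 242 to 252 TPM in B6 hyperoxia libraries and at 375 to 419 TPM in B6 room-air libraries, whereas the KO groups overlap.

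Of 22 other genes of the VEGF and angiopoietin pathways, 4 rose and 5 fell in B6 lungs, 2 rose and 5 fell in KO lungs, 3 rose and 6 fell in DBA lungs, and 1 rose and 1 fell in the second B6 set. In B6 lungs these counts are near the shares over all genes (16.6% higher and 26% lower). Neither this list nor the further lists below were tested as lists, and their counts stand beside the shares over all genes given above. The largest change among the VEGF and angiopoietin genes was a rise of Pgf, the placental growth factor that binds Flt1, in B6 (log2 fold change 1.24), in KO (1.15) and in the second B6 set (0.90). In DBA lungs it was a fall of Notch4, an endothelial Notch receptor (-1.41).

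Aerocyte genes did not move together. Apln, the ligand apelin, which lung aerocytes make (chrX:48025146-48034853, minus strand, mm10), fell in B6 hyperoxia lungs, at 34.2, 27.5 and 37.9 TPM against 48.5, 53.8, 50.2 and 56.8 TPM in B6 room-air lungs. It rose in KO hyperoxia lungs, at 73.2, 115, 92.8 and 92.9 TPM against 51, 55.8, 46.3 and 48.8 TPM in KO room-air lungs. Neither pair of groups overlapped. On the log2 scale the change was -0.65 ± 0.13 (SE) in B6 (limma adjusted p = 0.000891) and 0.86 ± 0.12 in KO (adjusted p = 0.000223), and the responses differed by 1.51 ± 0.18 (limma interaction, adjusted p = 4.28e-05). Among the 42 genes no other KO response lay as far from its B6 response, and among male libraries alone it was 1.51 (adjusted p = 0.000973). In DBA lungs Apln measured 50.8, 82.9, 70.7 and 71 TPM in hyperoxia, against 49.2, 67.8, 46.9 and 39.5 TPM in room air, groups that overlapped. The DBA log2 fold change of 0.44 ± 0.16 passed narrowly (limma adjusted p = 0.049) and kept its call under 3 of 17 other settings, over which it ran from 0.17 to 0.71, while its difference from B6, 1.09 ± 0.23, had an adjusted p of 0.00363. In the second B6 set Apln measured 36.9, 34.3 and 34.9 TPM in hyperoxia, against 23.4 and 25.8 TPM in room air. That is a direction opposite to the first B6 set, with a log2 fold change of 0.51 ± 0.12 (limma adjusted p = 0.0476), a call that was kept under 0 of 11 other settings, over which it ran from 0.44 to 0.57.

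Ednrb, the endothelin receptor B that is high in aerocytes, rose in B6 hyperoxia lungs, at 69.5, 101 and 72.6 TPM against 55, 55.7, 54 and 60 TPM in room air. The B6 groups did not overlap, and the log2 fold change was 0.50 ± 0.12 (SE, limma adjusted p = 0.00272), or 0.52 (adjusted p = 0.0556) within the shared date code. KO lungs had 43.5, 55.4, 47.5 and 54.2 TPM in hyperoxia, against 55, 66.1, 59.1 and 61.6 TPM in room air, a log2 fold change of -0.27 ± 0.11 that did not pass (limma adjusted p = 0.0906). The KO response differed from that of the first B6 set by -0.77 ± 0.16 (limma interaction, adjusted p = 0.00256). In the second B6 set Ednrb measured 41.3, 58.4 and 55.3 TPM in hyperoxia, against 74.3 and 75.6 TPM in room air. Those groups did not overlap and lay in the reverse order to the first B6 set, though the change was not called. Car4, a carbonic anhydrase on the surface of aerocytes, rose in KO hyperoxia lungs, at 179, 186, 195 and 189 TPM against 138, 167, 133 and 158 TPM in room air. Its log2 fold change was 0.33 ± 0.09 in KO (limma adjusted p = 0.0212) and -0.03 ± 0.10 in B6 (adjusted p = 0.826), and the difference between these responses did not pass (0.36 ± 0.14, adjusted p = 0.0637). The KO call of Car4 held under 13 of 16 other settings and was lost without the room-air library at 138 TPM (0.30, limma adjusted p = 0.056), without that at 133 TPM (0.28, adjusted p = 0.0583) and without the hyperoxia library at 195 TPM (0.31, adjusted p = 0.0537). Of 9 other aerocyte genes, 1 rose and 1 fell in B6, 4 rose and 1 fell in KO, 4 rose and none fell in DBA, and none was called in the second B6 set. Cdkn2b, a cyclin-dependent kinase inhibitor, had the largest change of that list in B6 (log2 fold change 1.20), KO (0.74) and DBA lungs (1.15).

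Aplnr, the apelin receptor and a marker of general capillary cells (chr2:85136360-85139923, plus strand, mm10), fell in both B6 sets and in KO lungs. It measured 68.6, 52.8 and 54.5 TPM in B6 hyperoxia libraries, against 108, 111, 111 and 84.3 TPM in B6 room-air libraries. Levels in KO lungs were 54, 52.1, 46.1 and 52.5 TPM in hyperoxia, against 84.5, 81.4, 93.3 and 91.8 TPM in room air. In the second B6 set it measured 19.2, 34.6 and 28 TPM in hyperoxia, against 72 and 68.8 TPM in room air. No hyperoxia library of these 3 sets reached the lowest room-air library of its own set. The log2 fold change was -0.81 ± 0.11 (SE) in B6 (limma adjusted p = 2.92e-05), -0.77 ± 0.10 in KO (adjusted p = 0.000141) and -1.37 ± 0.21 in the second B6 set (adjusted p = 0.0094). In DBA lungs it was at 86.1, 120, 107 and 92.8 TPM in hyperoxia, against 93.7, 139, 76.3 and 77.4 TPM in room air. The DBA log2 fold change of 0.11 ± 0.17 did not pass (limma adjusted p = 0.662), and it differed from that of B6 by 0.92 ± 0.25 (limma interaction, adjusted p = 0.013). Apln and Aplnr were called in opposite directions in KO lungs and in the second B6 set, and both fell in the first B6 set.

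Gpihbp1, which carries lipoprotein lipase to the capillary surface, fell in KO, DBA and second-set B6 lungs and rose in the first B6 set. In KO lungs it measured 158, 180, 157 and 161 TPM in hyperoxia, against 270, 281, 240 and 238 TPM in room air. In the first B6 set it measured 246, 317 and 277 TPM in hyperoxia, against 183, 229, 234 and 251 TPM in room air. The KO groups were far apart and the first B6 groups overlapped by 1 library. The change on the log2 scale was -0.64 ± 0.10 (SE) in KO (limma adjusted p = 0.00055), -0.55 ± 0.13 in DBA (adjusted p = 0.00419), -0.58 ± 0.13 in the second B6 set (adjusted p = 0.0442) and 0.32 ± 0.11 in the first B6 set (adjusted p = 0.0278). The first-set call held under 9 of 16 other settings (0.23 to 0.53) and the second-set call under 3 of 11 (-0.68 to -0.47). Both the KO response (-0.96 ± 0.15, limma interaction adjusted p = 0.000329) and the DBA response (-0.87 ± 0.19, adjusted p = 0.00331) differed from that of the first B6 set. Plvap, the diaphragm protein of fenestrae and caveolae, rose in DBA lungs, at 266, 319, 251 and 250 TPM in hyperoxia against 229, 253, 164 and 177 TPM in room air (log2 fold change 0.41 ± 0.14, limma adjusted p = 0.0371). That call held under 7 of 17 other settings (0.28 to 0.55). Of 8 other general capillary genes, 2 rose and 5 fell in B6, 1 rose and 4 fell in KO, none rose and 2 fell in DBA, and none rose and 4 fell in the second B6 set. The largest changes were falls of Cxcl12 in B6 (log2 fold change -1.60), Glp1r in KO (-1.15) and Kit, the stem cell factor receptor, in DBA (-1.10) and the second B6 set (-1.44).

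Lyve1, the hyaluronan receptor of lymphatic endothelium (chr7:110850607-110862953, minus strand, mm10), rose in every set. It measured 493, 820 and 432 TPM in B6 hyperoxia libraries, against 106, 154, 172 and 182 TPM in B6 room-air libraries. KO lungs had 319, 342, 319 and 297 TPM in hyperoxia, against 223, 208, 175 and 217 TPM in room air. In DBA lungs it measured 238, 267, 201 and 224 TPM in hyperoxia, against 175, 131, 153 and 158 TPM in room air. In the second B6 set it measured 337, 383 and 379 TPM in hyperoxia, against 205 and 200 TPM in room air, and in none of the 4 sets did the groups overlap. On the log2 scale the change was 1.89 ± 0.19 (SE) in B6 (limma adjusted p = 2.86e-06), 0.63 ± 0.18 in KO (adjusted p = 0.0223), 0.59 ± 0.19 in DBA (adjusted p = 0.0286) and 0.85 ± 0.12 in the second B6 set (adjusted p = 0.00797). The response differed from that of the first B6 set by -1.25 ± 0.27 in KO (limma interaction, adjusted p = 0.00308) and by -1.30 ± 0.28 in DBA (adjusted p = 0.0036). The DBA call itself held under 10 of 17 other settings (0.45 to 0.73). The KO call held under 13 of 16 and was lost with no filter on low values (0.63, limma adjusted p = 0.0692), without the KO room-air library at 175 TPM (0.56, adjusted p = 0.0579) and without the KO hyperoxia library at 342 TPM (0.60, adjusted p = 0.0591). Neither of the other lymphatic members was called higher in any set. Prox1, the transcription factor that sets lymphatic identity, had a log2 fold change of -0.12 ± 0.15 in B6 and -0.21 ± 0.14 in KO and fell in DBA lungs (-0.43 ± 0.14, limma adjusted p = 0.036, a call held under 8 of 17 other settings), at 0.68 to 1.04 TPM in DBA hyperoxia libraries against 1.09 to 1.80 TPM in DBA room-air libraries. Mmrn1, a secreted glycoprotein found in lymphatic endothelium and in platelets, fell in KO (-0.43 ± 0.13, limma adjusted p = 0.0348, a call held under 6 of 16 other settings) and DBA lungs (-0.58 ± 0.12, adjusted p = 0.00271) and had a log2 fold change of 0.27 ± 0.14 in B6 (adjusted p = 0.154). Of the other lymphatic genes tested, 0 of 5 rose and 1 of 5 fell in B6, none was called in KO, 1 of 6 rose and 1 of 6 fell in DBA, and 0 of 4 rose and 1 of 4 fell in the second B6 set. The gene that fell was Ccl21a, a lymphatic chemokine, with log2 fold changes of -0.71 in B6, -1.10 in DBA and -1.09 in the second B6 set.

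Lyve1 is also made by a type of interstitial macrophage, whose other marker genes summed higher in hyperoxia than in room air in every set. Over 7 such genes the summed level was 327 to 382 TPM in B6 hyperoxia libraries against 184 to 229 TPM in room air, 334 to 448 TPM against 196 to 235 TPM in KO, 306 to 332 TPM against 217 to 242 TPM in DBA and 259 to 268 TPM against 170 to 202 TPM in the second B6 set. Of those 7 genes, 2 rose and none fell in B6 and in KO, and 1 of 6 tested rose in DBA and in the second B6 set. The hyperoxia sums of B6 and KO overlapped, while their Lyve1 levels in hyperoxia did not. The part of these cells in the rise of Lyve1 was not tested.

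**Figure D3:**
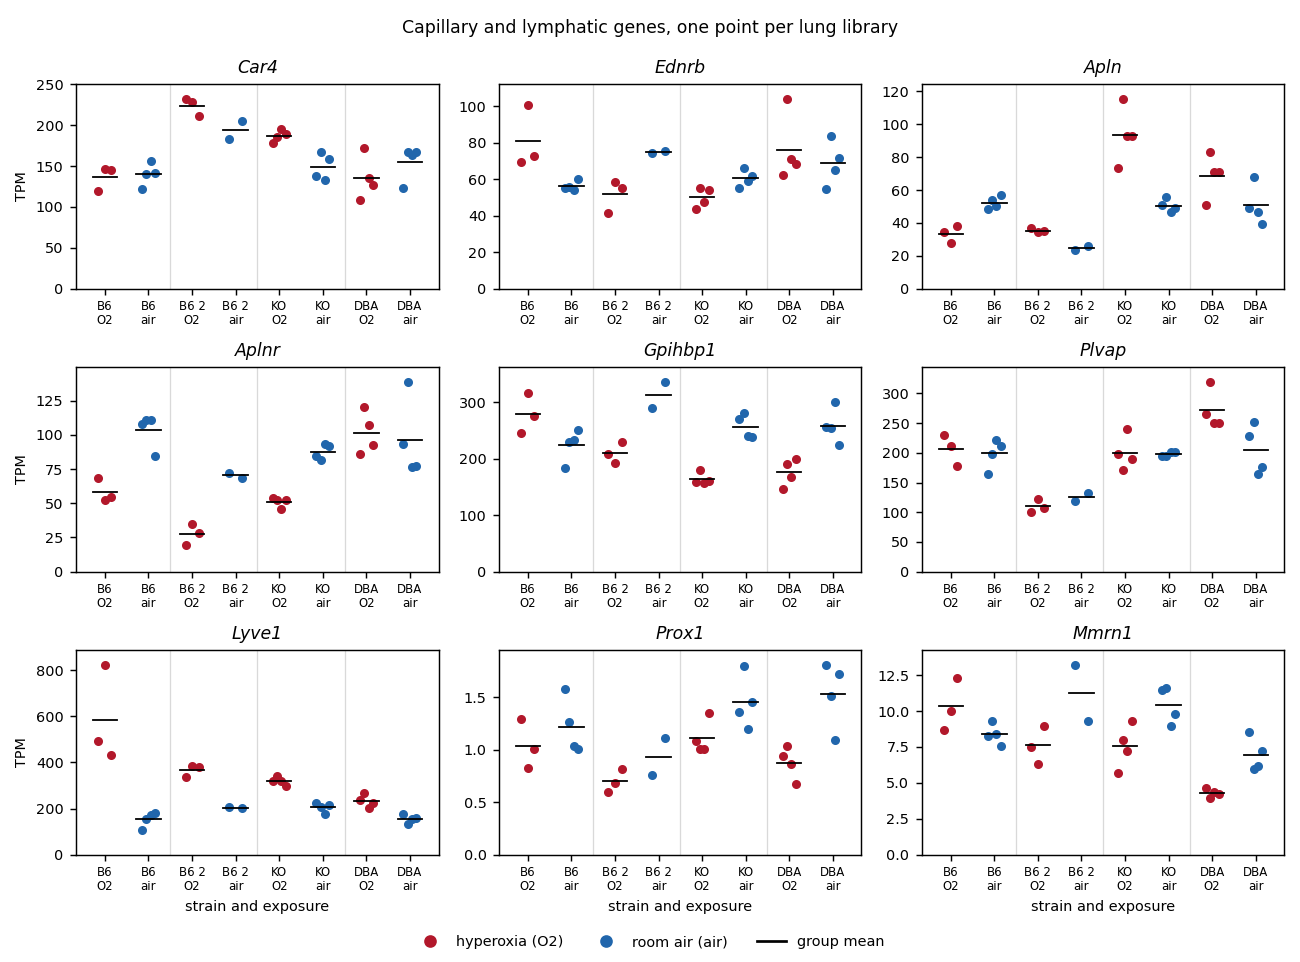
TPM of the aerocyte (top row), general capillary (middle row) and lymphatic genes (bottom row) in every lung library, by set and exposure as labelled (B6 2, second B6 set; O2, hyperoxia; air, room air), with black lines at group means. Apln is higher in hyperoxia than in room air in KO lungs (73.2 to 115 TPM against 46.3 to 55.8 TPM) and lower in the first B6 set, and Lyve1 is separate between exposures in all 4 sets.

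Tek, the angiopoietin receptor Tie2 that stabilises vessels, fell in all 4 sets. It measured 94.1, 103 and 83.9 TPM in B6 hyperoxia libraries, against 124, 130, 127 and 132 TPM in B6 room-air libraries. Levels in KO lungs were 81.7, 68, 79.6 and 73.4 TPM in hyperoxia, against 123, 134, 116 and 133 TPM in room air. In DBA lungs it measured 71.9, 95.4, 87.3 and 94.6 TPM in hyperoxia, against 112, 131, 110 and 111 TPM in room air, and in none of these sets did the groups overlap. The log2 fold change was -0.46 ± 0.08 (SE) in B6 (limma adjusted p = 0.000393), -0.74 ± 0.08 in KO (adjusted p = 1.77e-05), -0.41 ± 0.10 in DBA (adjusted p = 0.00481) and -0.83 ± 0.16 in the second B6 set (adjusted p = 0.0246). Neither the KO response (-0.28 ± 0.11, limma interaction adjusted p = 0.0795) nor the DBA response (0.05 ± 0.14, adjusted p = 0.828) was told apart from that of B6. Within each DBA date code the fall of Tek was -0.54 and -0.28 and did not pass (limma adjusted p = 0.154 and 0.0619).

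Ptprb, the vascular phosphatase VE-PTP that restrains Tie2 and Kdr signalling, fell in KO, DBA and second-set B6 lungs. In KO lungs it measured 81.8, 75.9, 87.9 and 85.8 TPM in hyperoxia, against 155, 154, 136 and 155 TPM in room air. In B6 lungs it measured 142, 140 and 121 TPM in hyperoxia, against 156, 151, 138 and 151 TPM in room air. The KO groups lay far apart while the B6 groups overlapped. Its log2 fold change was -0.85 ± 0.07 (SE) in KO (limma adjusted p = 2.45e-06), -0.53 ± 0.09 in DBA (adjusted p = 0.000589), -1.07 ± 0.16 in the second B6 set (adjusted p = 0.00859) and -0.15 ± 0.08 in the first B6 set (adjusted p = 0.144). The KO response differed from that of the first B6 set by -0.70 ± 0.11 (limma interaction, adjusted p = 0.000313) and the DBA response by -0.39 ± 0.13 (adjusted p = 0.04), a DBA difference that held under 8 of 22 other settings. Tie1, the orphan partner of Tek, fell in KO lungs, with a log2 fold change of -0.33.

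The SOX factors of the F group, which together set arterial and capillary identity, fell in 2 or more of the sets. Sox17 measured 19.2, 16.4 and 22 TPM in B6 hyperoxia libraries, against 36.6, 34.5, 23.8 and 32.6 TPM in B6 room-air libraries. In DBA lungs it measured 16.3, 31.4, 29.4 and 35.1 TPM in hyperoxia, against 67.8, 55.6, 73 and 62.3 TPM in room air. Both pairs of groups were separate, and the DBA room-air libraries were the highest of all lung libraries. Its log2 fold change was -0.69 ± 0.18 (SE) in B6 (limma adjusted p = 0.00635), -0.57 ± 0.17 in KO (adjusted p = 0.0281), -1.22 ± 0.19 in DBA (adjusted p = 0.000362) and -1.11 ± 0.14 in the second B6 set (adjusted p = 0.0052). The KO call held under 9 of 16 other settings, over which the value ran from -0.71 to -0.40, and within the date code that both KO groups share it was -0.64 (limma adjusted p = 0.0949). Sox7 measured 26.7, 26.7 and 24.3 TPM in B6 hyperoxia libraries, against 55.4, 46, 37.9 and 44.5 TPM in B6 room-air libraries. KO lungs had 36.1, 24.9, 47.5 and 36.6 TPM in hyperoxia, against 56.7, 65.9, 48.2 and 57.5 TPM in room air, so that neither set overlapped. Sox7 fell in B6 (-0.79 ± 0.17, limma adjusted p = 0.00138), KO (-0.67 ± 0.15, adjusted p = 0.00766) and the second B6 set (-0.81 ± 0.15, adjusted p = 0.0221) and had a log2 fold change of -0.29 ± 0.23 in DBA (adjusted p = 0.364). The KO call of Sox7 was lost with date code as a term (-0.56, limma adjusted p = 0.0582) and within the shared date code (-0.56, adjusted p = 0.121). Sox18 fell in B6 (-0.62) and KO (-0.57). Erg, the ETS factor of endothelium, fell in KO lungs (-0.46).

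Calcrl encodes the receptor for adrenomedullin, a vasodilator peptide that guards the capillary barrier, and Ramp2 and Ramp3 encode its accessory proteins. Calcrl measured 186, 217 and 217 TPM in B6 hyperoxia libraries, against 392, 439, 530 and 532 TPM in B6 room-air libraries. Levels in KO lungs were 282, 246, 273 and 258 TPM in hyperoxia, against 405, 485, 344 and 401 TPM in room air, so that neither set overlapped. On the log2 scale the change was -1.18 ± 0.12 (SE) in B6 (limma adjusted p = 2.89e-06), -0.61 ± 0.11 in KO (adjusted p = 0.00176), -0.39 ± 0.20 in DBA (adjusted p = 0.143) and -0.97 ± 0.16 in the second B6 set (adjusted p = 0.0129). The KO response differed from that of B6 by 0.57 ± 0.17 (limma interaction, adjusted p = 0.0204). Ramp2 fell in KO lungs, at 196, 190, 234 and 200 TPM in hyperoxia against 297, 313, 273 and 309 TPM in room air (log2 fold change -0.54 ± 0.09, limma adjusted p = 0.00111). It fell in DBA lungs too, at 398, 531, 446 and 461 TPM in hyperoxia against 776, 769, 826 and 665 TPM in room air (-0.73 ± 0.11, limma adjusted p = 0.000289). In the first B6 set its log2 fold change was -0.02 ± 0.10. Both the KO response (-0.52 ± 0.14, limma interaction adjusted p = 0.0116) and the DBA response (-0.70 ± 0.16, adjusted p = 0.0056) differed from it. In the second B6 set Ramp2 measured 405, 405 and 389 TPM in hyperoxia, against 505 and 562 TPM in room air. Those groups did not overlap, though the fall was not called. Ramp3 rose in B6 hyperoxia lungs, at 8.81, 22.7 and 14 TPM against 5.55, 4.48, 3.19 and 6.85 TPM in room air (1.37 ± 0.32, limma adjusted p = 0.00297), and was not called elsewhere. It rested on 75 to 568 reads a library, and its difference between KO and B6 responses (-1.34 ± 0.44, limma interaction adjusted p = 0.0349) held under 11 of 22 other settings.

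Mmrn2, a matrix glycoprotein of vessels, rose in both B6 sets and in KO lungs. It measured 36.2, 26.1 and 31.1 TPM in B6 hyperoxia libraries, against 27.1, 23.8, 22.6 and 20.5 TPM in B6 room-air libraries. In KO lungs it measured 39.2, 43, 40.2 and 39.5 TPM in hyperoxia, against 21.1, 22.9, 25.3 and 20.8 TPM in room air. The KO groups lay far apart and the B6 groups overlapped by 1 library. Its log2 fold change was 0.39 ± 0.11 (SE) in B6 (limma adjusted p = 0.00966), 0.82 ± 0.10 in KO (adjusted p = 8.34e-05), 0.31 ± 0.13 in DBA (adjusted p = 0.0806) and 0.70 ± 0.15 in the second B6 set (adjusted p = 0.0302). The first-set B6 call held under 12 of 16 other settings and was lost with date code as a term (0.27, limma adjusted p = 0.1), within the shared date code (0.27, adjusted p = 0.216), among male libraries (0.16, adjusted p = 0.324) and without the hyperoxia library at 36.2 TPM (0.27, adjusted p = 0.0651). Its KO response differed from its B6 response by 0.43 ± 0.15, which passed (limma adjusted p = 0.0423) and held under 7 of 22 other settings.

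Among the surface, junction and guidance genes, Cdh5, the VE-cadherin of endothelial junctions, fell in B6 (log2 fold change -0.55), KO (-0.52) and the second B6 set (-0.62), and had a log2 fold change of 0.08 in DBA. Robo4, a guidance receptor that keeps vessels tight, fell in DBA lungs, at 32.1, 45.2, 29.5 and 28.7 TPM in hyperoxia against 57, 53.9, 62 and 63.5 TPM in room air (-0.81 ± 0.15, limma adjusted p = 0.00102). Its DBA response differed from that of B6 by -0.85 ± 0.22 (limma interaction, adjusted p = 0.00911). Clec14a, a C-type lectin of vessels that binds Mmrn2, rose in DBA hyperoxia lungs, at 128, 160, 147 and 153 TPM against 93.4, 139, 110 and 113 TPM in room air, a log2 fold change of 0.37 ± 0.12 (limma adjusted p = 0.0309) that held under 7 of 17 other settings. Egfl7, a secreted guide of vessel sprouting, fell in B6 (-0.35), KO (-0.33) and DBA (-0.65). Esam fell in DBA lungs (-0.48), Icam2 and Cldn5 fell in B6 lungs (-0.36 and -0.31), and Pecam1 fell in KO lungs (-0.36). In the BMP group, Acvrl1 fell in B6 (-0.24) and KO (-0.27), Eng in B6 (-0.54), Bmpr2 in KO (-0.37) and the second B6 set (-0.69), and Tmem100, a target of this pathway in endothelium, in KO (-0.54), DBA (-0.44) and the second B6 set (-0.60). S1pr1, the sphingosine phosphate receptor of the endothelial barrier, fell in DBA lungs (-0.61).

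Of 21 further endothelial identity genes, 3 rose and 10 fell in B6, 1 rose and 12 fell in KO, 2 rose and 7 fell in DBA, and none rose and 11 fell in the second B6 set. The largest changes were falls of Sema3g in B6 (log2 fold change -1.15), Gata2 in KO (-0.86), Klf2, a flow-responsive factor, in DBA (-1.44) and Podxl in the second B6 set (-0.99). Of the genes of arteries and veins, none of 10 rose and 4 fell in B6, none of 10 rose and 3 fell in KO, 1 of 10 rose and 3 fell in DBA, and none of 9 rose and 3 fell in the second B6 set. Gja5, the arterial connexin 40, had the largest of these changes in B6 (-2.09), and Gja4, Efnb2 and Efnb2 had the largest in KO (-1.06), DBA (-0.66) and the second B6 set (-1.02). Gja5 is also made in atrial muscle, and cardiac muscle genes summed to 49.4 to 134 TPM in B6 hyperoxia libraries against 17.5 to 50.6 TPM in B6 room-air libraries. Their part in its fall was not tested. Of 9 genes of pericytes, the contractile cells that wrap capillaries, 2 rose and 3 fell in B6, 2 rose and 4 fell in KO, 2 rose in DBA and 1 rose in the second B6 set. Rgs5, a regulator of G protein signalling, rose the most of them in B6 (1.32), KO (0.87), DBA (1.01) and the second B6 set (0.78).

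In room air 0 of the 42 genes were called between the Trem2 knockout and B6 in limma, beside 0.0512% of genes higher and 0.0256% lower over all genes tested (8 and 4 of 15614), while 1320 genes had an unadjusted p below 0.05. With equal medians 13 genes were higher and 3 lower over all genes, and again 0 members were called. The log2 differences of the members ran from -0.27 for Kdr to 0.45 for Lyve1. In hyperoxia 9 members were higher and 13 lower in KO than in B6 lungs, beside 22% and 15.2% of all genes. The largest differences were those of Apln (1.46 ± 0.13, limma adjusted p = 1.71e-06) and Ramp3 (-1.18 ± 0.32, adjusted p = 0.00969). The Ramp3 call held under 13 of 15 other settings and was lost without the B6 hyperoxia library at 22.7 TPM (-0.86, limma adjusted p = 0.0624) and with date code as a term (-1.10, adjusted p = 0.372). With date code as a term, which rests on the codes that other groups of the fit share, 3 members were higher and 2 lower, and 998 genes were higher and 444 lower with a median of 0.15. Over all genes, 3435 were higher and 2379 lower, and with equal medians 2773 were higher and 3038 lower, of which 6 and 16 were members.

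The response to oxygen itself differed between KO and B6 for 14 members, 6 of them with a higher and 8 with a lower value in KO, beside 16.4% and 8.98% of all genes. With equal medians the calls over all genes turned from 2553 higher and 1402 lower to 1808 higher and 2118 lower, and 4 members were higher and 10 lower. With quantile normalization they were 1880 higher and 1815 lower over all genes, and 6 and 8 of the members. Those higher in KO were Vegfa, Kdr, Nrp1, Apln, Mmrn2 and Calcrl, and those lower were Vegfc, Ednrb, Gpihbp1, Lyve1, Mmrn1, Ptprb, Ramp2 and Ramp3. The difference for Mmrn1 was lost with date code as a term (-0.49, limma adjusted p = 0.149) and without B6 hyperoxia library 3 (-0.57, adjusted p = 0.0515). The B6 libraries here are those of the first set alone. In KO and in the second B6 set alike, Apln rose and Gpihbp1 and Ptprb fell. Vegfa, Vegfc, Kdr, Nrp1, Ednrb and Ramp3 were called in neither. In the second B6 set, though, every hyperoxia library lay below every room-air library for Vegfa and Nrp1, as in the first B6 set. Their KO groups overlapped. Ednrb also lay lower without overlap in the second B6 set, in the reverse order to the first. Lyve1 and Mmrn2 rose and Calcrl fell in these sets and in the first B6 set. Mmrn1 and Ramp2 fell in KO and were not called in the second B6 set. The DBA response differed from that of B6 for 10 members, 4 higher (Kdr, Nrp1, Apln and Aplnr) and 6 lower (Gpihbp1, Lyve1, Mmrn1, Ptprb, Robo4 and Ramp2), beside 20% and 9.2% of all genes. With equal medians these calls over all genes turned from 3126 higher and 1437 lower to 2113 higher and 2169 lower, and 3 members were higher and 6 lower. With quantile normalization they were 2313 higher and 2043 lower over all genes, and 4 and 6 of the members. The median difference over all genes was 0.09 for KO and 0.11 for DBA. Both comparisons use the same libraries of the first B6 set, so their values stand side by side and are not counted as independent.

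**Figure D4:**
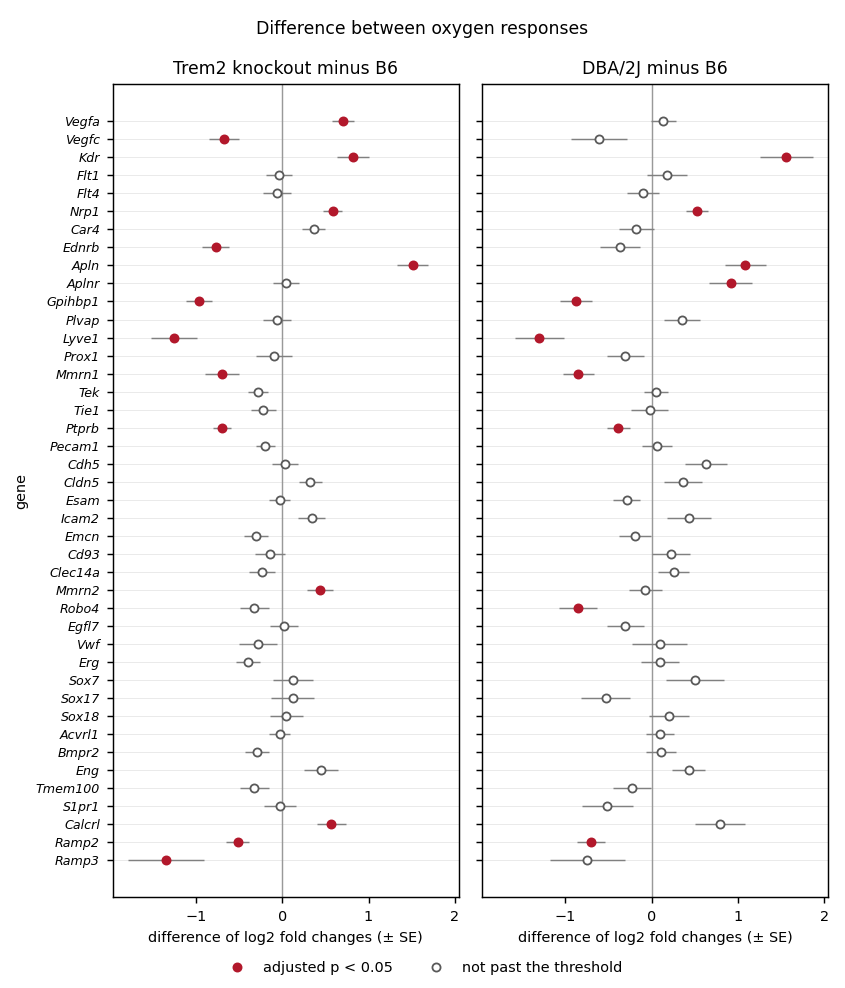
Difference between oxygen responses, KO minus B6 on the left and DBA minus B6 on the right, as a difference of log2 fold changes with bars of 1 SE for the 42 genes; filled red points passed an adjusted p of 0.05. Kdr lies at 0.82 in KO and 1.56 in DBA and Lyve1 at -1.25 and -1.30, and both panels share the B6 libraries.

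In room air 18 of the 42 members were called between DBA and B6 lungs, beside 56.4% of all genes. Of these, 11 members were higher and 7 lower in DBA than in B6, beside 21.5% and 34.8% of all genes, with a median of -0.12 over all genes. With equal medians the calls over all genes turned from 3365 higher and 5439 lower to 4157 higher and 4487 lower, and 13 members were higher and 3 lower. Sox18 measured 187, 208, 153 and 119 TPM in DBA room-air libraries, against 64, 54.2, 42.7 and 51.1 TPM in B6 room-air libraries. Ramp2 measured 776, 769, 826 and 665 TPM in DBA room-air libraries, against 248, 288, 284 and 302 TPM in B6 room-air libraries. Every DBA library lay above every B6 library for both genes, and the log2 differences were 1.62 for Sox18 and 1.43 ± 0.11 for Ramp2 (limma adjusted p = 1.38e-07). Sox7 (1.11), Sox17 (1.01), Egfl7 (0.99) and Robo4 (0.93) were higher in DBA as well, and Kdr (-1.33), Calcrl (-0.59) and Cdh5 (-0.50) were lower. Among male libraries alone 9 members were higher and 2 lower. The split of calls was 16 higher and 5 lower with quantile normalization, 8 and 9 without the DBA room-air library at 208 TPM of Sox18, 15 and 2 without that at 119 TPM and 9 and 3 without that at 153 TPM.

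In hyperoxia 14 members were higher and 4 lower in DBA than in B6 lungs, beside 23.3% and 22.8% of all genes. Sox18 had the highest of these differences, at 110, 145, 130 and 108 TPM in DBA hyperoxia libraries against 31.6, 36.4 and 33.7 TPM in B6 hyperoxia libraries (log2 difference 1.82). Those lower in DBA were Lyve1 (-1.27 ± 0.21, limma adjusted p = 0.00015), Mmrn1 (-1.09 ± 0.13, adjusted p = 1.17e-05), Ptprb (-0.68 ± 0.10, adjusted p = 5.03e-05) and Gpihbp1 (-0.67 ± 0.14, adjusted p = 0.00101). Apln (1.02 ± 0.17, limma adjusted p = 0.00021) and Aplnr (0.78 ± 0.18, adjusted p = 0.00272) were both higher. Genes of the cell cycle, which dividing cells express, summed to 69.1 to 110 TPM in DBA hyperoxia libraries against 98.7 to 110 TPM in B6 hyperoxia libraries, and to 17.4 to 31 TPM in DBA room-air libraries against 74.5 to 101 TPM in B6 room-air libraries, and their part in the strain difference was not tested. Genes of alveolar type 2 cells summed to 7170 to 12000 TPM in DBA room-air libraries against 20500 to 31600 TPM in B6, genes of pericytes to 610 to 1050 TPM against 1290 to 1550 TPM, and genes of platelets to 36.7 to 102 TPM against 8.72 to 18.1 TPM. In hyperoxia libraries these sums were 13100 to 25800 TPM in DBA against 21300 to 25800 TPM in B6 for alveolar type 2 cells, 931 to 1010 TPM against 1410 to 1560 TPM for pericytes and 27.4 to 43.6 TPM against 12.6 to 15.3 TPM for platelets. The part of these cells in the strain differences was not tested either.

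**Figure D5:**
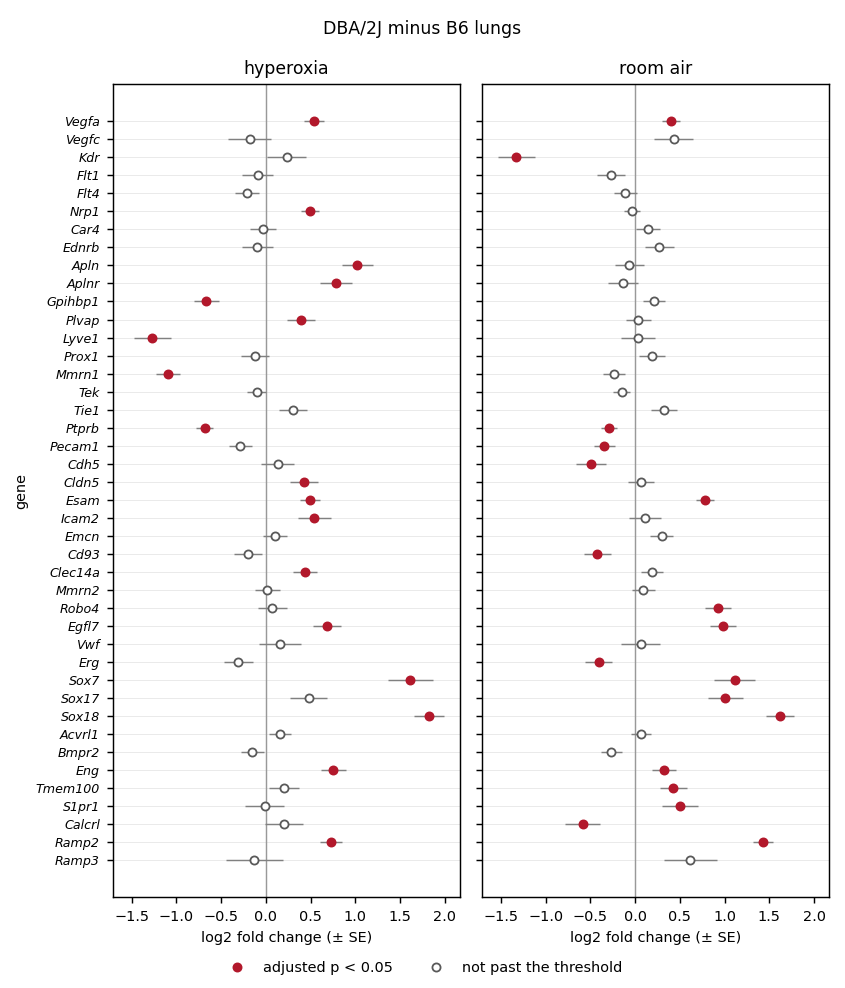
Log2 difference between DBA and B6 lungs for the 42 genes, in hyperoxia on the left and in room air on the right, with bars of 1 SE; filled red points passed an adjusted p of 0.05. Sox18 lies at 1.82 and 1.62, while Kdr lies at 0.23 in hyperoxia and at -1.33 in room air.

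In bone-marrow-derived macrophages, a cell type that should lack most of these genes, 24 of the 42 were below 1 TPM in all 12 libraries. These were 2 libraries each of KO, DBA and B6 cells kept in culture in hyperoxia or in room air for 24 h. Medians here are over all 12 libraries. The oxygen level of the lung exposure is not assumed for these cultures, whose library names carry a different number. B6 macrophage libraries share no date code with KO or DBA macrophage libraries. Genotype or strain and date code therefore cannot be told apart where B6 macrophages are set against the others. Within each of KO, DBA and B6, hyperoxia and room-air macrophages share a code. The median was at least 10 TPM for 10 members. Cd93, also a receptor of myeloid cells, had a median of 241 TPM and Nrp1 one of 194 TPM, and Vegfa had 51.8 TPM, S1pr1 46.7 TPM and Eng 25.4 TPM. The aerocyte gene Ednrb had a median of 11.8 TPM that hides a wide range. It measured 60.8 and 59.4 TPM in KO hyperoxia macrophages, against 22 and 21.7 TPM in KO room air. These values were 20.8 and 6.99 TPM against 4.06 and 0.907 TPM in B6, and 11.6 and 12 TPM against 1.82 and 2.39 TPM in DBA. Since their table was scaled apart from those of lung, these levels were not tested against lung.

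Binding of p53 was mapped in lungs and macrophages, and peaks near these genes were counted. In each of the 10 pooled peak lists at most 1 of 42 members had a peak within 10 kb of its start, beside 0.225% to 6.31% of all 24940 start sites. In room-air B6 lungs a peak lay 1822 bases downstream of the start of Tie1 (chr4:118487928-118488128, mm10), and in room-air KO lungs a peak lay at position -8667 relative to the start of Eng, which is upstream, (chr2:32637829-32638029, mm10). Plvap and Sox18 each had a peak in 1 macrophage list. The shares over all start sites were 0.225% in the Tie1 list, 0.245% in the Eng list, 1.46% in the Plvap list and 6.31% in the Sox18 list. None of the 5 lists from hyperoxia had a peak near a member, beside 0.237% to 4.74% of all start sites. Counts of 0 or 1 in 42 members are too small to set against these shares.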

How the data were processed

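RNA was measured by sequencing of poly(A)-enriched RNA in 28 lung libraries and 12 macrophage libraries, and p53 binding by ChIP-seq. The deposited expression values are TPM, per the file headers, from reads aligned with STAR to mm10 and counted with HOMER, per the submitters' processing notes; the sources used here give neither versions nor strand settings. The deposited peak lists were made by the authors with HOMER from replicates combined per group, after Bowtie2 alignment, and their peak score is a tag count scaled to a fixed total, per the file headers. Strand use being unknown, reads of overlapping or antisense genes cannot be told apart.

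Values in TPM were taken as log2(TPM + 1). A gene was tested where the number of libraries reaching 1 TPM was no less than the size of the smallest group in its table. Tests used limma (version 3.58.1, under R 4.3.3), fitting group means with a mean-variance trend, and Benjamini-Hochberg adjustment over all genes tested. The lung RNA came in 3 tables (B6 with KO, B6 with DBA, second B6 set), and tests stayed within a table. Steps between low TPM values gave the reads a library held, with all checked values whole within 0.15 of a read; this estimate covers listed transcripts only. The scripts were tested on simulated data, and figures were drawn with Python 3.11.15. Columns of the first lung tables name a group, a date code and a sex mark, and were matched to groups only. Members picked for library values were those of the VEGF, aerocyte and lymphatic groups. From the other members, the 3 largest called rises and 3 largest called falls in B6, KO and DBA lungs were picked. The text prints most of these for some sets only and leaves out the other sets. The figures of TPM show every lung library for VEGF, capillary and lymphatic members. Sox18 was added after its values were seen. From each further list, the called gene of largest change is named. Members and lists were chosen with earlier results of these data known. Other pseudocounts, scalings, filters, batch and sex terms and left-out libraries were tried.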

Additional observations from a re-analysis of the deposited data

Results flagged for a closer look

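Among 25 genes in the 5 lung groups of 4 libraries, 125 checks in all, 7 had a library set apart from the others by a gap above Dixon's critical value. The gap was taken as a share of the group's range. Chance alone flags about 1 in 20 checks, a share close to the 7 of 125 found here. In the first B6 set in room air the lowest Aplnr value was 84.3 TPM, with the next at 108 TPM (gap 0.884 of the range). In KO room-air lungs the lowest Ptprb value was 136 TPM, with the next at 154 TPM (0.931). In DBA room-air lungs the lowest Flt4 value was 15 TPM, with the next at 18.6 TPM (0.883), the lowest Car4 value was 124 TPM, with the next at 164 TPM (0.903), and the highest Tek value was 131 TPM, with the next at 112 TPM (0.925). In DBA hyperoxia lungs 1 library held both the highest Flt1 value, 47.6 TPM with the next at 36 TPM (0.847), and the highest Ramp3 value, 17.6 TPM with the next at 12.2 TPM (0.852).

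The oxygen response of KO lungs differed from that of the first B6 set in the limma interaction test. As a difference of log2 fold changes it differed by 0.71 for Vegfa, 0.82 for Kdr, 0.58 for Nrp1, 1.51 for Apln, 0.43 for Mmrn2 and 0.57 for Calcrl. It differed in the other direction by -0.67 for Vegfc, -0.77 for Ednrb, -0.96 for Gpihbp1, -1.25 for Lyve1, -0.70 for Mmrn1, -0.70 for Ptprb, -0.52 for Ramp2 and -1.34 for Ramp3. The response of DBA lungs differed from that of the same B6 libraries by 1.56 for Kdr, 0.53 for Nrp1, 1.09 for Apln and 0.92 for Aplnr. For Gpihbp1 it differed by -0.87, for Lyve1 by -1.30, for Mmrn1 by -0.85, for Ptprb by -0.39, for Robo4 by -0.85 and for Ramp2 by -0.70.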

How the results depend on the processing

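The number of members called stayed within 1.5 times its value for most settings, and no named gene that was called changed sign. In the KO and B6 hyperoxia comparison 5 members were called with date code as a term, against 22 without it. In DBA lungs 11 were called, all lower, with no filter on low values, and 0 within the date code whose 2 hyperoxia and 2 room-air libraries gave no call for any gene, against 18. Between DBA and B6 in room air 11 were called among male libraries, against 18. In the second B6 set 0 were called with no filter, where 29 genes were called in all. Leaving out 1 library gave 18 to 22 members in B6, 15 to 21 in KO, 12 to 15 in DBA and 0 to 11 in the second B6 set, the lowest without its room-air library 2. It gave 18 to 22 between KO and B6 in hyperoxia, 12 to 17 between DBA and B6 in room air and 15 to 19 in hyperoxia, and 12 to 16 (KO) and 9 to 13 (DBA) for the difference of responses. A date code term could not be estimated between DBA and B6 within an exposure.

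The second B6 set carries replicate numbers of 2 kinds, with correlations of same-numbered deviations from -0.008 to 0.047 over 14636 genes, so the numbers were not taken as pairs. With a replicate block by title numbers 6 members were called, and by description numbers 14. In the first lung tables, numbers restart within each date code and nothing says that they pair libraries. Over the 7 pairs of equal code and number in hyperoxia and room air, correlations of deviations ran from -0.231 to 0.083, so these were not taken as pairs either. A replicate block by code and number, chosen after seeing the data, called 17 members in B6, 10 in KO and 17 in DBA, and 8 (KO) and 9 (DBA) for the difference of responses; the numbers of settings given in the report leave it out.

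Depth limits Prox1 in the second B6 set, which rested on 31 to 59 reads a library.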
